A study of Homo sapiens with 12 samples.

Results

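The genes described here code for the subunits, activators and assembly chaperones of the proteasome, taken as the gene symbols that consist of PSM, a letter from A to G and a number. Where a gene had several probe sets, the one with the highest mean across all 12 arrays stood for it, and the gene was kept if that probe set exceeded 4 on the log2 scale on all 3 arrays of at least 1 group. By this rule 41 of the 42 PSM genes with a probe set of their own were members, out of 10508 genes tested and 19775 genes with such a probe set. All 41 were above 4 on all 12 arrays. The member with the lowest mean over the arrays was PSMB9 at 7.62, and PSMA8, a testis form of an alpha subunit, was left out with a mean of 3.10. PSMA6 and PSME2 lie on probe sets that carry several symbols, and PSMB11, PSMC5, PSMD7 and PSMD13 had no probe set in the annotation used, so these 6 genes were not analysed here.

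Expression was profiled with Affymetrix arrays in the HK-2 line, immortalised epithelial cells of the human kidney proximal tubule, so that all arrays come from 1 line. There were 3 biological replicates in each of 4 groups, namely CsA for 48 h, control for 48 h, CsA for 12 h and control for 12 h. CsA is taken to mean cyclosporine A, an inhibitor of calcineurin that acts through cyclophilins and is used to suppress immunity, and the labels do not give the dose. Cells of every group grew in one medium with EGF, hydrocortisone, insulin, transferrin, selenite and antibiotics, were treated near confluence a day after seeding, and the controls received the vehicle. Each time had its own control group, and the length of the culture, its density and any difference in when arrays were run cannot be told apart from time.

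All levels below are deposited log2 values, and the number of arrays limits their precision. Within groups the lowest correlation between arrays across probe sets was 0.982 for CsA 48 h, 0.991 for control 48 h and 0.997 for each group at 12 h. The median standard deviation of the members within a group was 0.20 for CsA 48 h, 0.16 for control 48 h, 0.077 for CsA 12 h and 0.083 for control 12 h. The labels do not say what a replicate number stands for. Each p-value sets a difference against the spread between these samples, pooled over the 4 groups unless stated otherwise. At each time, CsA and control arrays that share a number shared their deviations from the group means, and they are treated below as pairs. Of the 15 genes of the list for proximal tubule and other epithelium, 7 were above 4, namely the keratins KRT7, KRT8, KRT18 and KRT19, the cadherins CDH1 and CDH2, and EPCAM. The brush-border genes GGT1, ANPEP, MME, LRP2, CUBN, AQP1, SLC34A1 and SLC5A2 did not pass the filter on low values, so general epithelial genes were present and these genes of the proximal tubule were not above it. Of 5 leukocyte genes 0 were above 4, of 5 distal nephron and podocyte genes 1 (AQP2), and of 9 fibroblast and endothelial genes 4 (DCN, LUM, COL1A1 and PECAM1). AQP2 and PECAM1 lay close to that cut, with means of 4.34 and 4.68 over the arrays.

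The proteasome degrades proteins that carry ubiquitin chains. Its 20S core is a barrel of outer alpha rings and inner beta rings, in which the beta subunits PSMB5, PSMB6 and PSMB7 cut peptide bonds. In the immunoproteasome, which interferon induces and which shapes peptides for MHC class I molecules, PSMB8, PSMB9 and PSMB10 take their places. The 19S regulatory particle caps the barrel: its PSMC subunits form a ring of ATPases that unfold substrates, and its PSMD subunits hold ubiquitin receptors and the deubiquitinase. Dedicated chaperones (the PSMG proteins for the core, PSMD5, PSMD9 and PSMD10 for the base of the cap) assist assembly, and the transcription factor NFE2L1 is known to raise many of these genes together when proteasome activity falls. In proximal tubule cells, filtered proteins taken up from the lumen go mainly to lysosomes, while the proteasome clears proteins of the cytosol and those returned from the endoplasmic reticulum.

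Promoters of 35 members were found in the RefSeq windows, which run from 250 bases before to 50 bases after the annotated start of a gene. Windows are shown for PSMC3 and PSMD12, which had the smallest adjusted p among members in the control comparison of the times described below, and for PSMB9 and PSMB10 of the immunoproteasome. Capitals mark only the match named for each gene, and the PSMB9 window also holds a CCAAT match, left in lower case. The windows are from GRCh38.p14 and are printed 5′ to 3′ on the strand of the gene. PSMC3 lies at chr11:47426390-47426689 on the minus strand, and its capitals mark a CCAAT box that begins at -114 from the start. PSMD12 lies at chr17:67366528-67366827 on the minus strand, and its capitals mark a match to the antioxidant response element core at -165. PSMB9 lies at chr6:32853942-32854241 on the plus strand, with a match to that core on the opposite strand at -148. PSMB10 lies at chr16:67936801-67937100 on the minus strand, with a match to the core of the interferon-stimulated response element at -21.
PSMC3: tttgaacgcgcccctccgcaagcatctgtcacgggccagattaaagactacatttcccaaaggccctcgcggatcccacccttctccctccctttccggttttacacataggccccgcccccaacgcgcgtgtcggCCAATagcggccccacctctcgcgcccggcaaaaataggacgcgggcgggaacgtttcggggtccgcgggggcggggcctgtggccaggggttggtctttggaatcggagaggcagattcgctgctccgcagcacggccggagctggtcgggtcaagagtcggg
PSMD12: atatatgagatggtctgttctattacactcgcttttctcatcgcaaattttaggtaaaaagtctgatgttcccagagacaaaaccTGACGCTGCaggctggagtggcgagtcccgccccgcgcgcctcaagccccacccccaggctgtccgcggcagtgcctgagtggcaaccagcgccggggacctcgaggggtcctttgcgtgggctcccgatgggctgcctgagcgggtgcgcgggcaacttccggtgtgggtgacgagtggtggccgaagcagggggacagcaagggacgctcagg
PSMB9: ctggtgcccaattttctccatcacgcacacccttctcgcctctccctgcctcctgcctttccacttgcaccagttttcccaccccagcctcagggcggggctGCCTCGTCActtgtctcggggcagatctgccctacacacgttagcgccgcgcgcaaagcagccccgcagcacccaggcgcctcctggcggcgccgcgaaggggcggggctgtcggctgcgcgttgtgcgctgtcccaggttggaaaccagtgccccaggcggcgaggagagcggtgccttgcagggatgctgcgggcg
PSMB10: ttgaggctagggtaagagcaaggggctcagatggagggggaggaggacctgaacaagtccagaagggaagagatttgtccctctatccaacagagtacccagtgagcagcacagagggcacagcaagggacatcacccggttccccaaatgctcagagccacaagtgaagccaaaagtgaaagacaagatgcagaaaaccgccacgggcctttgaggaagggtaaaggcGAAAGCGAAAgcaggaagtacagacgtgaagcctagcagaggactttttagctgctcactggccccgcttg

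The antioxidant response element core, to which NFE2L1 and its relative NFE2L2 bind, was searched on both strands as TGACNNNGC. It was found in 13 of the 35 members with a window (37.1%), in 13.3% of 35116 RefSeq windows and in 19.9% of the 8696 genes tested that had a window. A gene was counted if any of its windows held a match. The CCAAT box, which binds NF-Y, was searched on both strands as CCAAT. It was found in 17 of the 35 members (48.6%), against 34.6% of all windows and 43.9% of the genes tested with a window. The interferon-stimulated response element core was searched on both strands as GAAA, any 2 bases and GAAA again. It was found in 6 members (17.1%), namely PSMA4, PSMB4, PSMB8, PSMB10, PSME1 and PSMG4. It was in 3.57% of all windows and in 3.73% of the genes tested with a window. Matches of different motifs overlapped in 0 members. A match is a description of the letters in the window and not a binding site. Of the 17 members with a window that were lower at 48 h in at least 1 treatment, 5 had the antioxidant core and 10 the CCAAT box. Of the other 18 members with a window, 8 and 7 had them.

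The clearest difference among the members was between the times. After 48 h most subunits of the 20S core and of the 19S particle stood below their 12 h level in both treatments, by 1.23- to 2.09-fold where the test was passed. Of the 7 assembly chaperones 1 passed it, in controls, and of the activators with their inhibitor and of the immunoproteasome genes 0 did. The 48 h group was compared with the 12 h group of the same treatment with limma over all genes tested, at an adjusted p of 0.05 (Benjamini-Hochberg). Under CsA 13 of the 41 members were lower at 48 h and 0 higher, where 7.58% of all genes tested were lower and 6.77% higher. In controls 18 members were lower and 0 higher, where 13.7% of genes were lower and 12.5% higher. The log2 difference was below 0 for 36 members under CsA and for 38 in controls. Its median over members was -0.28 under CsA and -0.36 in controls, beside 0.01 and 0.0076 over all genes tested. The 3 arrays at 48 h lay below all 3 at 12 h for 26 members under CsA, where 18.9% of genes tested did so, and for 25 members in controls, where 25.2% did. Fewer cells and less RNA per cell cannot be told apart in these samples, and arrays were scaled to one another before deposition, so these are changes relative to other genes.

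**Figure D1:**
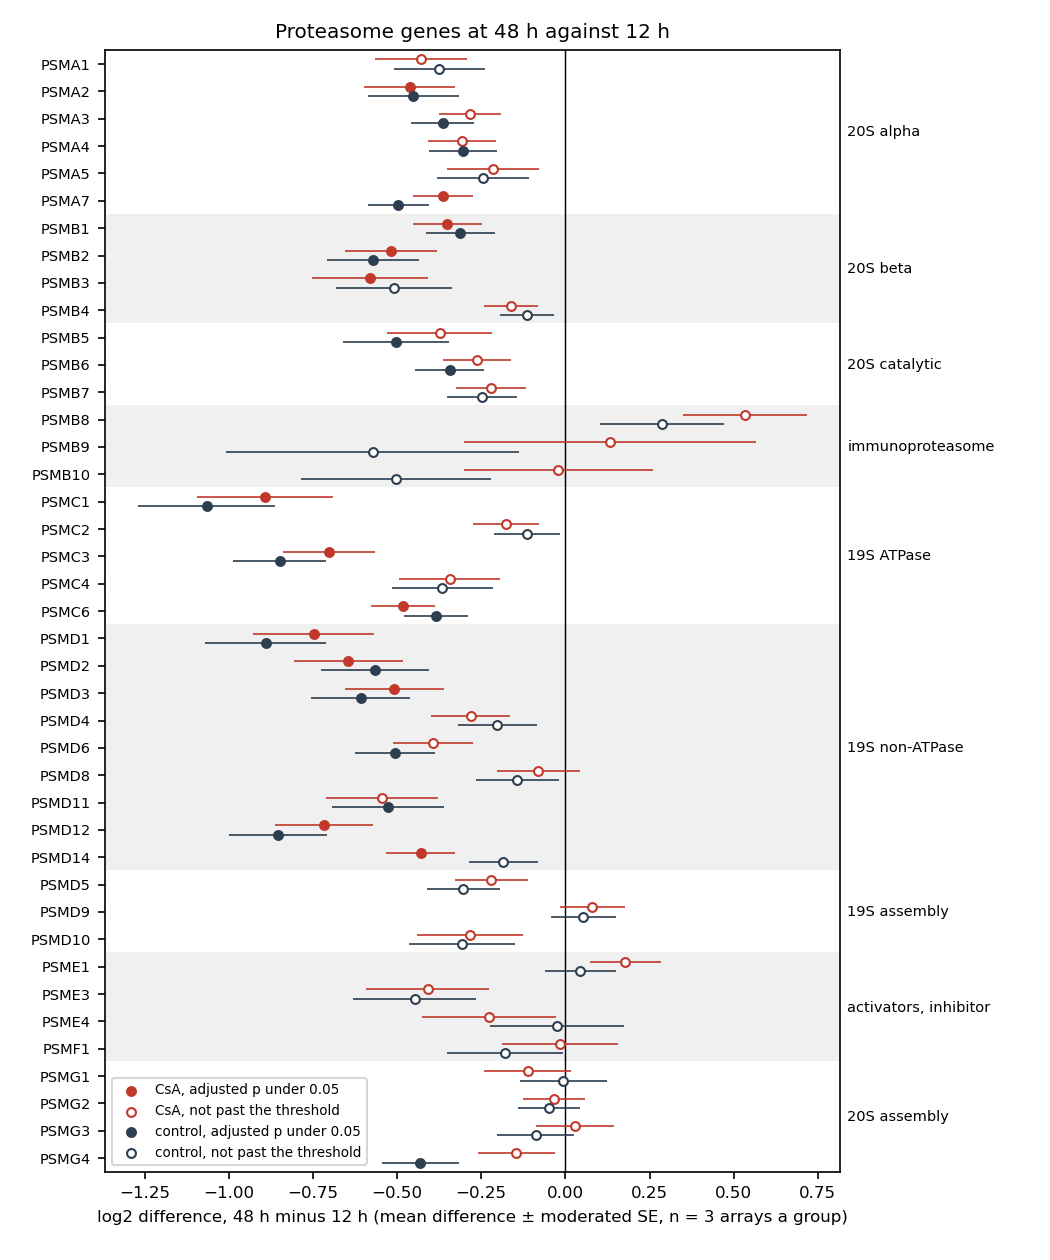
Log2 difference of each member between 48 h and 12 h (x axis) with its moderated standard error, for CsA (red, upper point of a row) and control (blue, lower point), 3 arrays a group, with rows grouped by role. Filled points passed the adjusted threshold, and all of them lie left of 0: 13 under CsA and 18 in control, of which 1, PSMG4, is in the assembly rows.

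PSMC1, of the ATPase ring of the 19S particle, had the largest change over time of the 41 members in both treatments. It was at 11.02, 11.20 and 11.62 under CsA at 48 h, against 12.18, 12.12 and 12.22 under CsA at 12 h. In controls it was at 10.81, 11.12 and 11.65 at 48 h, against 12.26, 12.24 and 12.27 at 12 h. The groups did not overlap, and at 48 h replicate 3 was the highest array in both treatments. PSMC1 was 1.85-fold lower at 48 h under CsA (log2 difference -0.89, SE 0.202, limma adjusted p = 0.0201). In controls it was 2.09-fold lower (log2 difference -1.07, SE 0.202, limma adjusted p = 0.00603).

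PSMC3, an ATPase that contacts the ubiquitin chain, had 9.02, 9.27 and 9.55 under CsA at 48 h, against 10.10, 9.83 and 10.01 under CsA at 12 h. Its controls had 9.07, 9.18 and 9.05 at 48 h, against 9.98, 9.85 and 10.01 at 12 h. Each array at 48 h lay below each array at 12 h of its treatment. PSMC3 was 1.63-fold lower at 48 h under CsA (log2 difference -0.70, limma adjusted p = 0.0115) and 1.80-fold lower in controls (log2 difference -0.85, limma adjusted p = 0.00308), with an SE of 0.137 for both. PSMC6, another ATPase of the ring, had 11.30, 11.44 and 11.30 under CsA at 48 h, against 11.86, 11.82 and 11.80 under CsA at 12 h, again without overlap. It was 1.40-fold lower (log2 difference -0.48, SE 0.0953, limma adjusted p = 0.0120), and in controls its arrays stood at 11.31, 11.59 and 11.46 at 48 h, against 11.82, 11.85 and 11.85 at 12 h. PSMC2 and PSMC4, the other ATPases measured, did not pass the test in either treatment. PSMC2 had 12.29, 12.23 and 12.04 under CsA at 48 h, against 12.43, 12.30 and 12.36 at 12 h, without overlap. It differed by -0.18 under CsA and by -0.115 in controls, where its arrays overlapped. PSMC4 differed by -0.34 under CsA and by -0.37 in controls, without overlap in either. Whether the subunits of the ring differed from one another was not tested. Over the 5 ATPases the median log2 difference was -0.48 under CsA and -0.39 in controls, with 3 called lower in each.

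Among the 9 non-ATPase subunits of the 19S particle 5 were lower at 48 h under CsA and 6 in controls, with median log2 differences of -0.51 and -0.53. PSMD12, a scaffold subunit of the lid, had 10.28, 10.21 and 10.48 under CsA at 48 h, against 11.10, 10.95 and 11.07 under CsA at 12 h. In controls it had 10.16, 10.08 and 10.64 at 48 h, against 11.18, 11.06 and 11.19 at 12 h. The arrays of the 2 times did not overlap in either treatment. PSMD12 was 1.65-fold lower at 48 h under CsA (log2 difference -0.72, SE 0.145, limma adjusted p = 0.013) and 1.81-fold lower in controls (log2 difference -0.85, SE 0.145, limma adjusted p = 0.00388). PSMD1, a large scaffold of the base, had 10.15, 10.78 and 10.70 under CsA at 48 h, against 11.24, 11.38 and 11.25 at 12 h. In controls it had 10.20, 10.57 and 10.70, against 11.50, 11.39 and 11.25. It passed the test in both treatments, with replicate 1 the lowest array at 48 h in each. PSMD2, the other large base scaffold, and PSMD3, a lid subunit, were also lower in both. PSMD2 had 11.28, 11.69 and 11.84 under CsA at 48 h, against 12.22, 12.19 and 12.34 at 12 h, and 11.49, 11.81 and 11.99 in controls at 48 h, against 12.32, 12.26 and 12.41 at 12 h. PSMD3 had 9.46, 9.85 and 9.84 under CsA at 48 h, against 10.23, 10.15 and 10.29 at 12 h, and 9.50, 9.89 and 9.98 in controls at 48 h, against 10.45, 10.31 and 10.44 at 12 h. Both were without overlap, and replicate 1 was again the lowest array at 48 h. PSMD6 and PSMD11, lid subunits, were called lower in controls. PSMD8, another lid subunit, had 11.89, 12.07 and 11.70 under CsA at 48 h, against 11.98, 11.88 and 12.05 at 12 h, which overlapped. PSMD14, the deubiquitinase that removes the chain, was called lower under CsA, with 12.17, 12.21 and 12.08 at 48 h against 12.61, 12.49 and 12.65 at 12 h. In controls PSMD14 had 12.16, 12.31 and 12.47 at 48 h, against 12.51, 12.43 and 12.55 at 12 h, where the groups overlapped and the test was not passed. PSMD4, a ubiquitin receptor, had 11.33, 11.17 and 11.28 under CsA at 48 h, against 11.60, 11.36 and 11.66 at 12 h, and did not pass the test in either treatment.

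**Figure D2:**
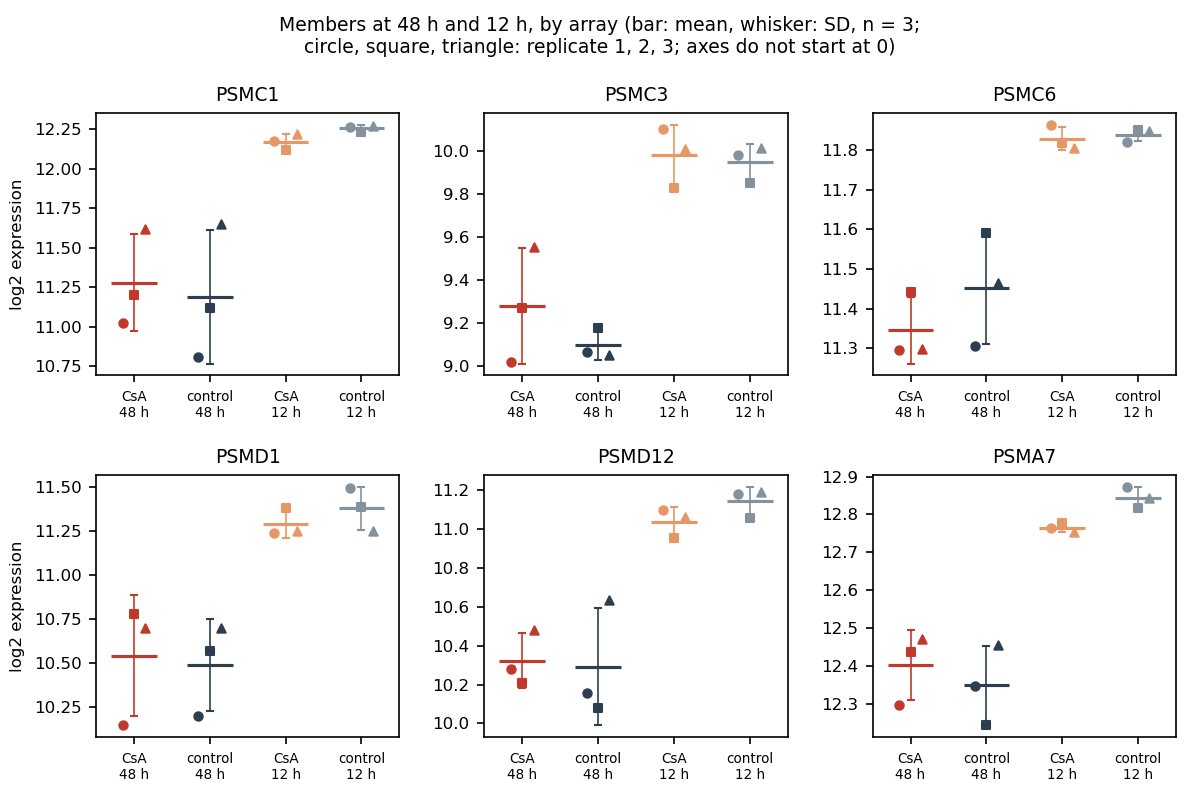
Log2 expression (y axis, not starting at 0) of 6 members that were lower at 48 h in both treatments, for each array, with group means (bars) and standard deviations (whiskers), 3 arrays a group. In each panel the 6 arrays at 48 h, on the left, lie below the 6 at 12 h, and for PSMC1 the arrays at 48 h run from 10.81 to 11.65 while those at 12 h run from 12.12 to 12.27.

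In the 20S core 5 of 13 measured constitutive genes were lower at 48 h under CsA and 8 of 13 in controls, and the log2 difference was below 0 for all 13 in both. PSMA7, an alpha ring subunit, had 12.30, 12.44 and 12.47 under CsA at 48 h, against 12.76, 12.78 and 12.75 at 12 h. In controls it had 12.35, 12.24 and 12.45 at 48 h, against 12.87, 12.82 and 12.84 at 12 h. The arrays at each time lay close together and did not overlap between times. The control difference was 1.41-fold (log2 difference -0.50, SE 0.0898, limma adjusted p = 0.00496), and PSMA7 was also called lower under CsA. Of the 6 alpha subunits measured, 2 were called lower under CsA (PSMA2 and PSMA7) and 4 in controls (PSMA2, PSMA3, PSMA4 and PSMA7). Of the 4 beta subunits that do not cut, PSMB1, PSMB2 and PSMB3 were lower under CsA, and PSMB1 and PSMB2 in controls. PSMB2 had 11.77, 11.83 and 12.15 under CsA at 48 h, against 12.38, 12.46 and 12.46 at 12 h, and 11.87, 11.72 and 12.18 in controls at 48 h, against 12.44, 12.51 and 12.53 at 12 h. PSMB3 had 11.16, 11.55 and 11.78 under CsA at 48 h, against 12.13, 11.94 and 12.16 at 12 h. Neither gene overlapped between these times, and replicate 3 was the highest array of each at 48 h. PSMB4, the fourth, had 12.87, 12.96 and 12.91 under CsA at 48 h, against 13.09, 13.05 and 13.09 at 12 h, a small difference without overlap that did not pass.

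The constitutive catalytic subunits followed the core in direction, with fewer calls under CsA. PSMB5, which carries the chymotrypsin-like activity, had 11.41, 11.76 and 11.78 under CsA at 48 h, against 12.04, 11.95 and 12.09 at 12 h. In controls it had 11.48, 11.52 and 12.01 at 48 h, against 12.04, 12.21 and 12.26 at 12 h. The times did not overlap in either treatment, and in controls replicate 3 at 48 h stood just below the 12 h arrays. None of PSMB5, PSMB6 and PSMB7 was called under CsA (median log2 difference -0.26), while PSMB5 and PSMB6, which carries the caspase-like activity, were called lower in controls (median over the 3 genes -0.34). PSMB7, the trypsin-like subunit, had 12.64, 12.84 and 12.67 under CsA at 48 h, against 12.93, 12.85 and 13.03 at 12 h, and did not pass in either treatment.

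The chaperones of core assembly had median differences over time nearer to 0. Among the 4 chaperones of the core the median log2 difference was -0.073 under CsA and -0.069 in controls. PSMG1, which pairs with PSMG2 to start the alpha ring, had 11.56, 11.54 and 11.13 under CsA at 48 h, against 11.56, 11.51 and 11.49 at 12 h. In controls PSMG1 had 11.59, 11.48 and 11.31 at 48 h, against 11.55, 11.43 and 11.41 at 12 h. These groups overlapped. PSMG4, which pairs with PSMG3, was called lower in controls, at 10.65, 10.43 and 10.50 at 48 h against 10.94, 10.92 and 11.01 at 12 h. Under CsA PSMG4 had 10.88, 10.49 and 10.63 at 48 h, against 10.77, 10.89 and 10.77 at 12 h, with overlap and no call. Of the chaperones of the 19S base (PSMD5, PSMD9 and PSMD10) 0 passed the test in either treatment, with medians of -0.22 under CsA and -0.30 in controls. Of all genes tested 7.58% were called lower under CsA and 13.7% in controls. PSMD5 differed by -0.22 under CsA and by -0.30 in controls, where its arrays did not overlap between times. PSMD10 differed by -0.28 under CsA and by -0.31 in controls, with overlap in both. PSMD9 had 11.22, 11.32 and 11.06 under CsA at 48 h, against 11.12, 11.11 and 11.12 at 12 h, and so was not among the genes with lower values.

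The activators PSME1, PSME3 and PSME4 and the inhibitor PSMF1 also had 0 calls in either treatment, with medians of -0.12 under CsA and -0.10 in controls. PSME1, a subunit of the interferon-inducible activator PA28, had 11.00, 11.00 and 11.25 under CsA at 48 h, against 10.97, 10.85 and 10.91 at 12 h, above them without overlap but not past the test. PSME3, the nuclear form of that activator, had 10.71, 10.62 and 10.04 under CsA at 48 h, against 10.88, 10.73 and 10.98 at 12 h, with replicate 3 far below the others. Its 48 h arrays lay below those at 12 h without overlap in both treatments. The log2 difference of PSME3 was -0.41 under CsA and -0.45 in controls, not past the test, and its other probe sets were also lower in both. PSME4, an activator known from testis and DNA repair, had 8.90, 9.23 and 8.42 under CsA at 48 h, against 9.11, 9.15 and 8.98 at 12 h. Replicate 3 was again the lowest array, and the groups overlapped.

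Most genes called lower under CsA were also called in controls. Of the 13 called under CsA, 11 (PSMA2, PSMA7, PSMB1, PSMB2, PSMC1, PSMC3, PSMC6, PSMD1, PSMD2, PSMD3 and PSMD12) were among the 18 called in controls. The other 2 under CsA were PSMB3 and PSMD14, and the other 7 in controls were PSMA3, PSMA4, PSMB5, PSMB6, PSMD6, PSMD11 and PSMG4. The difference between the treatments in their change over time was itself tested, as the CsA effect at 48 h minus that at 12 h, and 0 members passed, as did 0% of genes tested, with or without the pairs as a block. In controls the calls of PSMA7, PSMC1, PSMC3, PSMD1 and PSMD12 held under every alternative setting tried, and under CsA 0 of the 13 did. The number of calls varied with single arrays: leaving out 1 array gave between 2 and 17 calls under CsA and between 6 and 18 in controls. The replicate block across times gave 5 and 11. With that block 469 of all genes tested were called lower under CsA and 1130 in controls, beside 797 and 1441 without it. For the other settings the share of all genes called is not given here. Under CsA, a fit of the arrays of the groups compared alone gave 0 calls, and centred arrays gave 7. The lowest counts were those without replicate 1 or 3 of CsA 12 h (2 calls) and without replicate 3 of control 12 h (6 calls), and the 17 calls under CsA were those without replicate 3 of CsA 48 h. All 13 genes under CsA and 16 of the 18 in controls had log2 differences below 0 under every alternative.

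Against that change over time, the members differed little between CsA and control. At 48 h 0 of 41 members passed the limma test, as did 0% of all genes tested, and 0 members had an unadjusted p under 0.05. Their log2 differences lay between -0.18 and 0.45, with a median of -0.017 beside -0.018 over all genes tested. With the pairs as a block 0 members and 0% of genes passed, and 2 members, PSMB9 and PSMB10, had an unadjusted p under 0.05 (4.88% of the 41, where 12.3% of genes tested did). Taken pair by pair, 18 members were above 0 in pair 1, 32 in pair 2 and 11 in pair 3, with medians of -0.022, 0.083 and -0.12. The direction of the members as a group therefore differed between the pairs. All 3 pairs were above 0 for 7 members, where 13.4% of genes tested were, and below 0 for 6, where 16.2% were. PSMB4 was the 1 member whose CsA arrays lay below all control arrays, where 2.49% of genes did so. It had 12.87, 12.96 and 12.91 under CsA, against 13.06, 13.01 and 13.05 in controls (log2 difference -0.12, SE 0.0803, limma adjusted p = 0.999).

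At 12 h the same comparison gave 32 members below 0 and 9 above, with log2 differences between -0.25 and 0.10 and a median of -0.065 beside -0.015 over all genes tested. Of these, 0 passed the limma test, as did 0% of genes tested, and 0 had an unadjusted p under 0.05. With the pairs as a block 0 members were called, where 0.0285% of genes were. In that fit 1 member had an unadjusted p under 0.05 (2.44% of the 41, where 7.28% of genes tested did). The pair medians were -0.048, -0.053 and -0.068, and 26 members were below 0 in every pair, where 22.5% of genes tested were. For 7 members the CsA arrays lay below all control arrays (17.1% of the 41, where 6.57% of genes tested did so), and these were PSMA2, PSMA7, PSMC1, PSMD3, PSMD5, PSMD9 and PSMG4. The differences were small: PSMD3 had 10.23, 10.15 and 10.29 under CsA, against 10.45, 10.31 and 10.44 in controls (log2 difference -0.18, SE 0.147, limma adjusted p = 1.00). PSMD5 had 10.24, 10.18 and 10.28 under CsA, against 10.29, 10.39 and 10.33 in controls (log2 difference -0.10, SE 0.108, limma adjusted p = 1.00). PSMG4 had 10.77, 10.89 and 10.77 under CsA, against 10.94, 10.92 and 11.01 in controls (log2 difference -0.15, SE 0.114, limma adjusted p = 1.00). These SEs come from the fit of all 12 arrays, in which the wider spread at 48 h is pooled with that at 12 h. With the 6 arrays at 12 h alone and the pairs as a block, the SE of PSMD3 was 0.0534 (limma adjusted p = 0.253). That of PSMB9 was 0.0848 (limma adjusted p = 0.279). Without replicate 3 of control 12 h the median over members was -0.027.

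**Figure D3:**
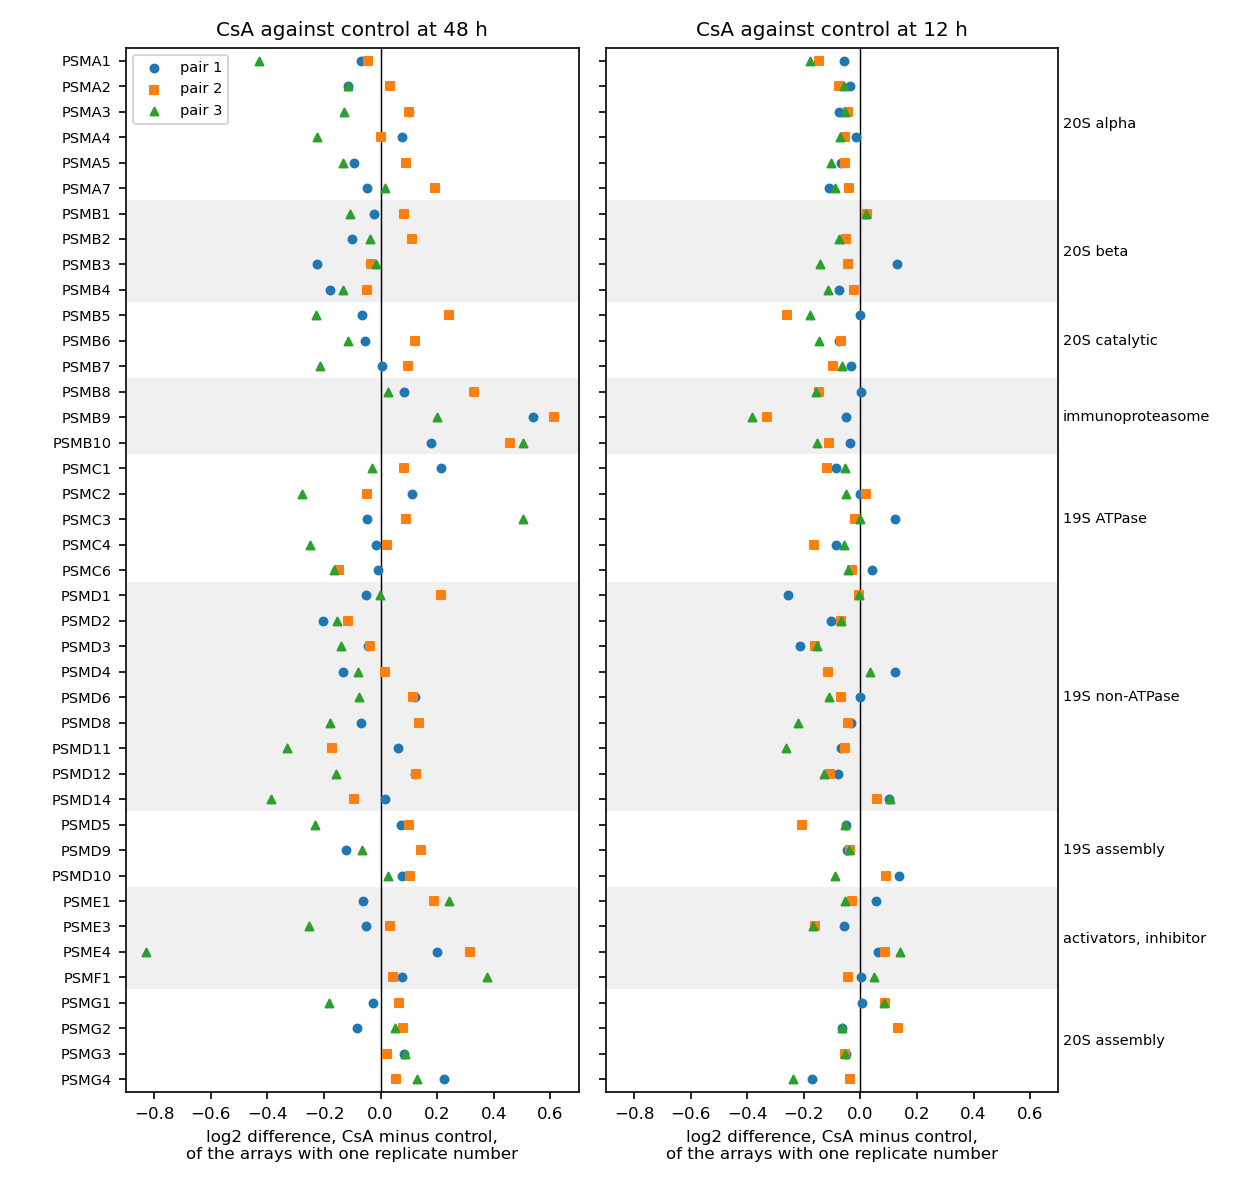
Log2 difference between CsA and control (x axis) for each member, taken between the arrays with one replicate number, at 48 h (left) and 12 h (right), with 1 symbol for each of the 3 pairs. At 12 h 26 members have all symbols left of 0 and the spread is narrow, while at 48 h the pairs differ, pair 3 lying mostly to the left (11 of 41 above 0) and pair 2 to the right (32 of 41 above 0).

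By role, the median differences of the core and the 19S particle lay near 0. In the constitutive core the median was -0.038 at 48 h and -0.065 at 12 h, and in the 19S particle -0.069 at 48 h and -0.083 at 12 h. PSMB5 had a log2 difference of -0.016 at 48 h (SE 0.157, limma adjusted p = 0.999) and -0.14 at 12 h (SE 0.157, limma adjusted p = 1.00), and its pairs at 48 h, at -0.06, 0.24 and -0.23, did not share a direction. PSMD4 differed by -0.065 at 48 h and 0.014 at 12 h (SE 0.118 for both, limma adjusted p = 0.999 and 1.00). PSMG1 differed by -0.047 at 48 h and 0.058 at 12 h (SE 0.129 for both, limma adjusted p = 0.999 and 1.00). PSMD14 had the smallest p of the members at 48 h in the fit without the pairs, with a log2 difference of -0.16 (SE 0.102, limma adjusted p = 0.999), and its pairs were at 0.01, -0.10 and -0.39. The widest single pair difference was that of PSME4 in pair 3 at 48 h, at -0.83, while its pairs 1 and 2 were at 0.20 and 0.31.

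The immunoproteasome genes were the role in which CsA and control stood furthest apart at 48 h, with values above 0 in every pair for all 3 genes. PSMB8, the inducible counterpart of PSMB5, had 10.40, 10.08 and 9.76 under CsA at 48 h, against 10.32, 9.74 and 9.73 in controls at 48 h. At 12 h it had 9.61, 9.54 and 9.48 under CsA, against 9.61, 9.69 and 9.63 in controls. The groups overlapped at both times, and all 48 h arrays lay above all 12 h arrays of their treatment. PSMB8 differed between CsA and control by 0.15 at 48 h and by -0.10 at 12 h (SE 0.184 for both, limma adjusted p = 0.999 and 1.00).

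PSMB9, the counterpart of PSMB6, had 8.48, 6.98 and 7.73 under CsA at 48 h, against 7.94, 6.37 and 7.53 in controls at 48 h. At 12 h it had 7.64, 7.29 and 7.86 under CsA, against 7.69, 7.62 and 8.25 in controls. Replicate 1 was the highest and replicate 2 the lowest at 48 h in both treatments, so the spread between replicates exceeded the pair differences of 0.54, 0.61 and 0.20. The difference at 48 h was 0.45 with an SE of 0.435 without the pairs (limma adjusted p = 0.999) and 0.110 with them as a block (limma adjusted p = 0.355). At 12 h it was -0.25 (SE 0.435, limma adjusted p = 1.00).

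PSMB10, the counterpart of PSMB7, had 8.90, 8.08 and 8.33 under CsA at 48 h, against 8.72, 7.62 and 7.83 in controls at 48 h. At 12 h it had 8.46, 8.30 and 8.61 under CsA, against 8.50, 8.41 and 8.76 in controls. Again the treatments overlapped and replicate 1 was the highest array at 48 h. The difference at 48 h was 0.38 with an SE of 0.282 without the pairs (limma adjusted p = 0.999) and 0.0868 with them as a block (limma adjusted p = 0.348), and at 12 h it was -0.10 (SE 0.282, limma adjusted p = 1.00). Leaving out 1 array, which breaks a pair, turned the unpaired difference at 48 h to -0.015 for PSMB8 (without replicate 1 of CsA) and to -0.0049 for PSMB9 (without replicate 2 of control). PSMB9 and PSMB10 were among 4 members, with PSMG3 and PSMG4, whose pairs were all above 0 at 48 h and all below 0 at 12 h, and 5.35% of genes tested had every pair at 48 h opposite to every pair at 12 h, in either direction. Over time 0 of the 3 immunoproteasome genes passed the test in either treatment, and their medians were 0.13 under CsA and -0.50 in controls.

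**Figure D4:**
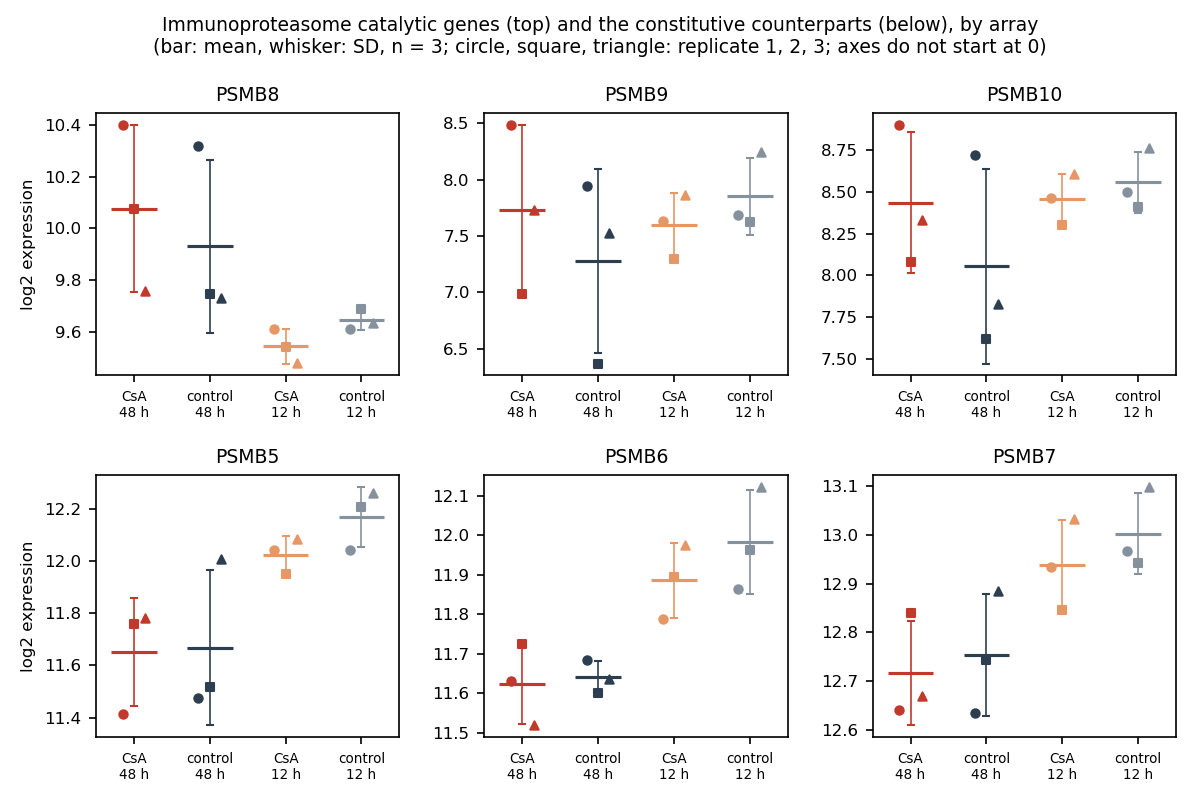
Log2 expression (y axis, not starting at 0) of the immunoproteasome genes PSMB8, PSMB9 and PSMB10 (top) and of PSMB5, PSMB6 and PSMB7 (below) for each array, with group means (bars) and standard deviations (whiskers), 3 arrays a group. At 48 h the immunoproteasome arrays are widely spread, PSMB9 running from 6.98 to 8.48 under CsA and from 6.37 to 7.94 in control, and the CsA symbol is above the control symbol of the same shape in all 3 upper panels.

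Genes that work with the proteasome but do not carry a PSM name were read from the same fit, and 0 of them passed the test between CsA and control at either time. Of 13 partners tested, 2 were lower and 0 higher at 48 h under CsA, and 4 were lower and 1 higher in controls. Of all genes tested 7.58% were lower and 6.77% higher under CsA, and 13.7% lower and 12.5% higher in controls. POMP, the maturation factor of the core, had 12.39, 12.52 and 12.72 under CsA at 48 h, against 12.97, 12.92 and 13.01 at 12 h (log2 difference -0.42, SE 0.122, limma adjusted p = 0.0452). In controls POMP had 12.46, 12.34 and 12.74 at 48 h, against 12.94, 12.95 and 13.01 at 12 h (log2 difference -0.45, SE 0.122, limma adjusted p = 0.0237), the direction of the core subunits called. UBE3C, a ubiquitin ligase bound to the proteasome, was lower under CsA (log2 difference -0.54, limma adjusted p = 0.0442) and in controls (log2 difference -0.66, limma adjusted p = 0.0137). SEM1, a small lid subunit, was lower in controls (log2 difference -0.72, SE 0.177, limma adjusted p = 0.0167). ADRM1, a ubiquitin receptor of the 19S particle, differed by -0.42 under CsA (limma adjusted p = 0.0637) and by -0.49 in controls (limma adjusted p = 0.0257). The partner higher in controls was ZFAND5, named after its values were seen.

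Of 13 genes of ubiquitin supply and delivery tested, UBA1, the main ubiquitin-activating enzyme, and UFD1, a cofactor of the segregase VCP, were lower at 48 h in both treatments. UFD1 differed by -0.49 under CsA (limma adjusted p = 0.00608) and by -0.45 in controls (limma adjusted p = 0.00488), and UBA1 by -0.49 (limma adjusted p = 0.0125) and -0.46 (limma adjusted p = 0.00981). VCP was also lower in controls, where SQSTM1, an autophagy receptor for ubiquitin, was higher, both named after their values were seen. The shares of all genes tested given for the partners apply to these counts too.

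Of the 12 genes listed for the NFE2L1 route, DDI2, SYVN1 and MAFK were not among the genes tested. NFE2L1, its relatives NFE2L2 and NFE2L3, and their small partners MAFF and MAFG were tested. So were NGLY1, SEL1L, OGT and HCFC1, genes known to process NFE2L1 or act with it. The mean values of these 9 genes stood mostly above their 12 h level at 48 h. Of the 9 tested, 2 were higher and 1 lower under CsA (median log2 difference 0.65), and 4 were higher and 1 lower in controls (median 0.85). Of all genes tested 6.77% were higher and 7.58% lower under CsA, and 12.5% higher and 13.7% lower in controls. NFE2L1 had 11.92, 11.69 and 10.69 under CsA at 48 h, against 10.89, 10.62 and 10.84 at 12 h (log2 difference 0.65, SE 0.280, limma adjusted p = 0.137). In controls it had 11.81, 11.33 and 11.18 at 48 h, against 10.69, 10.45 and 10.62 at 12 h (log2 difference 0.85, SE 0.280, limma adjusted p = 0.0468). Replicate 3 under CsA stayed at the 12 h level, while all control arrays at 48 h lay above those at 12 h. NFE2L2, the oxidative stress factor, was higher in controls (log2 difference 0.92, limma adjusted p = 0.00496), and MAFF, a small partner of both, was higher under CsA (log2 difference 0.76, limma adjusted p = 0.0404). HCFC1, a transcriptional coregulator known to be modified by OGT, was lower under CsA (log2 difference -0.56, limma adjusted p = 0.00769) and in controls (log2 difference -0.68, limma adjusted p = 0.00217). OGT itself was among the higher genes in both treatments and is named after its values were seen. Between CsA and control at 48 h the log2 difference was below 0 for all 9 genes, with a median of -0.22, and 6 were below 0 in every pair, where 16.2% of genes tested were. The pair medians were -0.048, -0.125 and -0.43, so pair 3 had the widest difference. NFE2L1 itself was not below 0 in every pair: its pairs were at 0.11, 0.36 and -0.50. With the pairs as a block 4 of the 9 had an unadjusted p under 0.05, where 12.3% of genes tested did, and 0 passed the limma test.

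Of the 7 antigen presentation genes tested, 0 passed the test in any comparison. TAP1, a peptide transporter gene that neighbours PSMB9 on the genome, had 8.99, 8.25 and 8.44 under CsA at 48 h, against 8.97, 7.96 and 7.93 in controls at 48 h. At 12 h TAP1 had 8.56, 8.53 and 8.51 under CsA, against 8.82, 8.50 and 8.76 in controls. The mean difference between CsA and control was 0.28 at 48 h and -0.16 at 12 h, with overlap at both times. Its value at 48 h was the highest of the 7 genes, which ran from -0.32 to 0.28 with a median of 0.016. Over time TAP1 differed by 0.03 under CsA (limma adjusted p = 0.953) and by -0.41 in controls (limma adjusted p = 0.275).

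**Figure D5:**
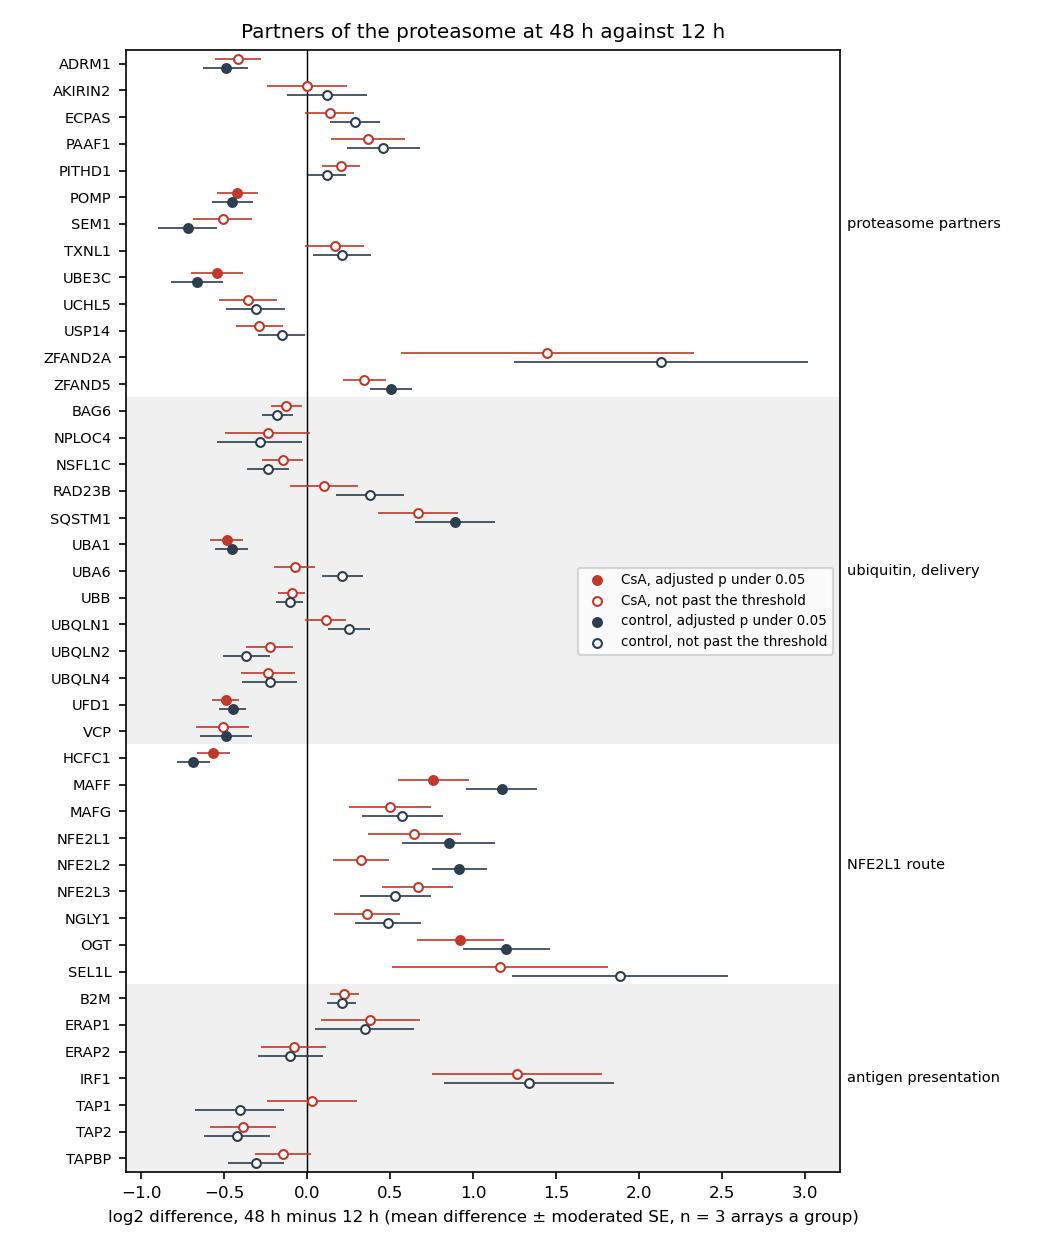
Log2 difference between 48 h and 12 h (x axis) with its moderated standard error for 42 genes outside the PSM names, for CsA (red, upper point of a row) and control (blue, lower point), 3 arrays a group. Filled points passed the adjusted threshold: POMP, UBE3C, UBA1, UFD1 and HCFC1 are filled left of 0 in both treatments, and MAFF and OGT right of 0 in both.

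Some markers of the epithelium also differed between the times. Of the 7 epithelial genes tested EPCAM was higher at 48 h under CsA and in controls, and KRT8 and CDH2 were lower in controls. All 3 are named after their values were seen. Of all genes tested 6.77% were higher and 7.58% lower under CsA, and 12.5% higher and 13.7% lower in controls. The summed level of the 15 genes was 95.7 for CsA 48 h, 95.3 for control 48 h, 95.0 for CsA 12 h and 94.5 for control 12 h. Their part in the result was not tested. The probe set chosen for a gene mattered for some members. For 16 members another 26 probe sets passed the filter, and 3 of the 26 had the opposite sign to the chosen one for the change over time under CsA (of PSMA5 and PSMF1) and 5 in controls (of PSMA5, PSME4 and PSMF1). Between CsA and control 7 had the opposite sign at 48 h (of PSMB1, PSMB2, PSMC2 and PSME3) and 5 at 12 h (of PSMB1, PSMB2, PSMC2 and PSMD4). PSMA5, PSME4 and PSMF1 were not among the genes called over time. The size of the change also varied between probe sets, as for PSMB2, called lower in both treatments. Its chosen probe set differed by -0.52 under CsA and -0.57 in controls. Another, with a mean of 9.32, differed by only -0.040 and -0.13, and a weaker one, with a mean of 5.84, by -0.96 and -1.23.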

How the data were processed

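The deposited log2 values of 12 Affymetrix arrays were used as they stand. GCRMA produced them, per the submitters' processing notes. It corrects background from each probe's sequence, brings arrays to one distribution by quantile normalisation and combines the probes of a set. Its version is not given in the sources used here, and that the scale is log2 was read from the deposited values (0.68 to 16.03, array medians 2.85 to 2.96). Of 54675 probe sets, 62 Affymetrix controls were left out, and 41091 carried 1 symbol, 1801 several and 11721 none in the platform annotation, with 0 symbols updated. A gene's probe set with the highest mean was used if it was above 4 on all 3 arrays of at least 1 group, which left 10508 genes.

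Groups were compared with limma 3.58.1 in R 4.3.3 as 4 group means over all 12 arrays, with 8 residual degrees of freedom, eBayes moderation, two-sided tests and Benjamini-Hochberg adjustment over all genes tested at 0.05. A blocked fit of all 12 arrays had 4 residual degrees of freedom, and one of the 6 arrays of one time had 2. Same-numbered CsA and control arrays had correlated deviations (0.783, 0.545 and 0.740 at 48 h, 0.366, 0.531 and 0.591 at 12 h), so the pairing comes from the data. Between times the correlations of same-numbered arrays lay between -0.144 and 0.226, and the numbers were not taken as pairs.

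The members and gene lists were chosen with earlier results of these data known. Tests are given for up to 4 members called per direction and comparison, or the 3 with the largest statistic where a CsA comparison had none, for PSMB5, PSMB8, PSMB9, PSMB10, PSMD4 and PSMG1 between CsA and control, for up to 2 called genes per outside list and comparison, and for NFE2L1, POMP, ADRM1 and TAP1. Alternatives covered the block, the arrays in the fit, the moderation, the filter (including above 6, 8962 genes), the probe set, centring and each array left out. The block with a trend and robust moderation and the block with a pair left out were added after the data were seen. Promoter windows are from RefSeq (GRCh38.p14).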

Additional observations from a re-analysis of the deposited data

Results flagged for a closer look

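For 4 members the difference between CsA and control was above 0 in all 3 pairs at 48 h and below 0 in all 3 pairs at 12 h, and 5.35% of genes tested had every pair at 48 h opposite to every pair at 12 h, in either direction. The effect at 48 h minus that at 12 h was 0.71 on the log2 scale for PSMB9 (SE 0.615), 0.48 for PSMB10 (SE 0.398), 0.28 for PSMG4 (SE 0.161) and 0.12 for PSMG3 (SE 0.162). In the limma fit the adjusted p of this difference was 1.00 for each. With the pairs as a block the limma adjusted p was 0.468 for PSMB9, 0.514 for PSMB10, 0.542 for PSMG4 and 0.706 for PSMG3, so 0 of the 4 passed. Groups of 3 arrays are too small for a check of single outlying arrays.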

How the results depend on the processing

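Between CsA and control, and for the difference of these effects between times, 0 members were called under any alternative, with or without the replicate block. The median at 48 h was -0.083 with the replicate block and pair 2 left out, and it changed sign under some settings (-0.043 to 0.027 with 1 array left out). Over time the block across replicate numbers, which do not pair the arrays between times, gave 5 calls under CsA and 11 in controls. With it 469 of all genes tested were called lower under CsA and 1130 in controls, beside 797 and 1441 without it. Under CsA the arrays of the groups compared alone gave 0 calls and centred arrays 7. Leaving out 1 array gave 2 to 17 calls under CsA: 2 without replicate 1 or 3 at 12 h, 4 without replicate 2 at 12 h or replicate 1 at 48 h, and 5 without replicate 2 at 48 h. In controls it gave 6 to 18: 6 without replicate 3 at 12 h, 7 without replicate 1 or 2 at 48 h, and 9 without replicate 1 or 2 at 12 h. Medians then ran from -0.36 to -0.24 under CsA and from -0.39 to -0.28 in controls. Apart from the block, the share of all genes called is not given for these settings. The counts therefore do not show whether the members varied more than other genes. The cause of the varying counts was not tested.

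Small CsA differences changed sign. At 48 h PSMB5 was 0.013 with centred arrays and 0.0081 or 0.089 with the block and pair 1 or 3 left out, and PSMG1 was 0.020 with the block and pair 3 left out. At 12 h PSMG4 was 0.022 and PSMD4 -0.027 with the median over probe sets, and PSMD4 -0.040 with the block and pair 1 left out. All other probe sets of PSMG4 were below the filter, with means of 2.34 to 2.87 over the arrays. Its median over probe sets therefore lay near the floor, and the sign there says little. With 1 array left out the ranges at 48 h were -0.11 to 0.16 for PSMB5, -0.015 to 0.34 for PSMB8, -0.0049 to 0.83 for PSMB9, -0.15 to 0.0036 for PSMD4 and -0.12 to 0.095 for PSMG1. At 12 h they were -0.18 to 0.0015 for PSMB10 and -0.047 to 0.11 for PSMD4. Of the named calls over time, those of PSMC1, PSMC3, PSMC6 and PSMD12 under CsA missed the threshold under 6, 1, 1 and 3 settings (limma adjusted p between 0.052 and 0.086), with the direction kept.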
